A study of Mus musculus with 20 samples.

Results

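The hypothalamus of old mice fed the Gly-Low diet was compared with that of young mice fed control diet, in bulk RNA sequencing of male C57BL/6J mice. The old Gly-Low group held 3 libraries from mice of 25 months that had eaten Gly-Low, which holds glycation-lowering compounds, for 5 months. The young control group held 4 libraries from mice of 3 months that had eaten control diet for 1 week. These 7 of the 20 libraries of the series were taken by their titles, with no measured value in the choice. Beside them stand 4 old control libraries (25 months, control diet for 5 months) and 5 acute control libraries (4 months, control diet for 1 week), the other group of young mice on control diet. Old Gly-Low and young control differ in age, in diet and in the time on the diet, so that these cannot be told apart in this comparison, and the comparison asks which differences from young mice are present in old mice on Gly-Low. Whether the libraries came from separate animals is not stated in the labels, so p-values measure the spread between these samples, which may be technical.

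In glycation, reactive by-products of sugar breakdown, methylglyoxal among them, bind to proteins and lipids, and glyoxalase 1, the product of Glo1, starts the removal of methylglyoxal. The hypothalamus holds the neurons that set feeding, body temperature, water balance and pituitary hormones, and much of their output is carried by neuropeptides. Its resident phagocytes are the microglia, with macrophages at the borders of the brain, and in ageing rodent brain these cells and the astrocytes are known to carry more transcripts of antigen presentation, complement and the interferon response. In whole tissue, fewer cells of a type and less RNA per cell cannot be told apart.

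All 12 hypothalamus markers, among them Nkx2-1, Sim1, Otp, Agrp and Hcrt, had counts in each of the 7 libraries, and their summed level in CPM (read counts scaled to library size) was 777 to 1124 CPM in old Gly-Low and 1039 to 1989 CPM in young control. Total counts were 23669317 to 26151516 in old Gly-Low and 15848372 to 24557277 in young control. Young control 4 stood apart from the other 3 young controls. Transcripts of the mitochondrial genome took 4.94%, 6.12% and 7.36% of the counts in old Gly-Low, against 12.9%, 17.2%, 13.7% and 5.73% in young control 1 to 4, with counting intervals of at most 0.017 percentage points to either side at 95% (exact Clopper-Pearson, counting error only). The length slope of a library, the gain in its log2 CPM relative to the other libraries for each doubling of a transcript's length, was 0.29, 0.08 and 0.16 in old Gly-Low and −0.11, −0.27, −0.11 and 0.22 in young control, so that long transcripts had a larger part of young control 4 and of all old Gly-Low libraries than of young controls 1 to 3. The mean difference was −6.25 percentage points for the mitochondrial share and 0.25 for the slope, and the two-sided exact permutation test gave p = 0.171 for each, where 3 against 4 libraries cannot go below 0.0571. In acute control the share was 6.98% ± 1.46 and the slope 0.17 ± 0.04 (SD, n = 5), close to those of old Gly-Low. Pituitary transcripts summed to 1232, 77.1 and 77.6 CPM in old Gly-Low, 25.3 to 107 CPM in young control and 8.67 to 61859 CPM in acute control.

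**Figure D1:**
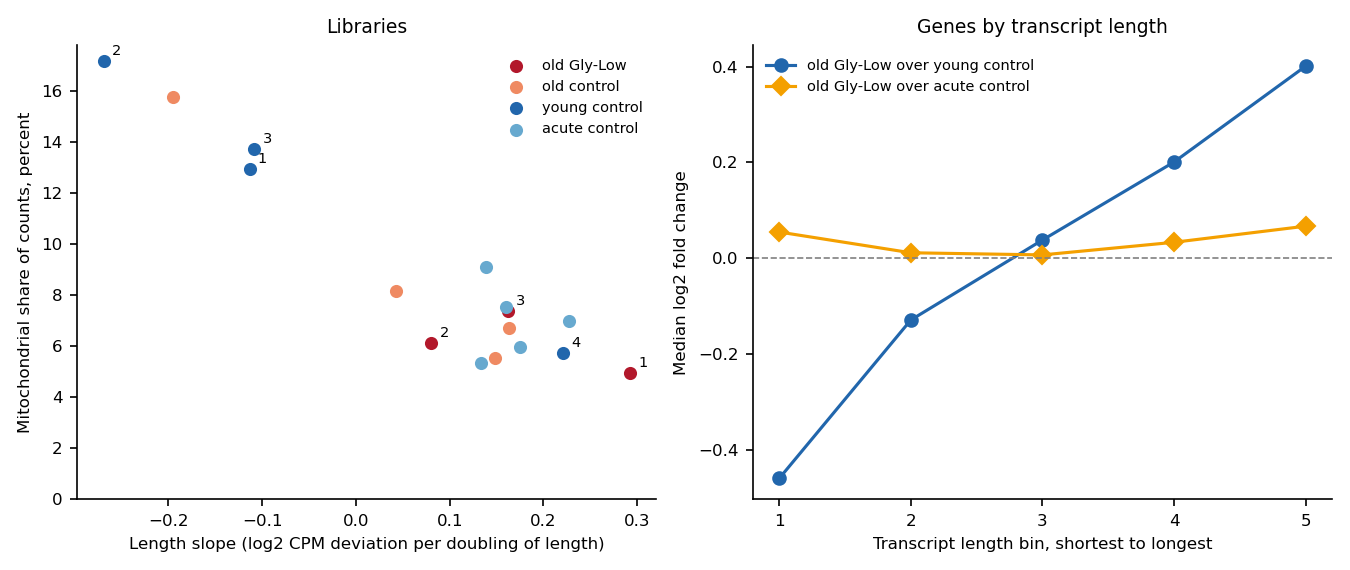
Left, the mitochondrial share of counts (percent) against the length slope, 1 point per library, with the replicate number beside old Gly-Low and young control: young controls 1 to 3 lie at 12.9% to 17.2% with slopes of −0.27 to −0.11, and young control 4 lies at 5.73% and 0.22 among the old Gly-Low and acute control libraries. Right, the median log2 fold change over genes in 5 bins of transcript length, from −0.46 to 0.40 for old Gly-Low over young control and from 0.01 to 0.07 for old Gly-Low over acute control.

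Against young control no gene passed the test. Of 17644 genes tested with edgeR's quasi-likelihood test, 0 had an adjusted p under 0.05 (0% called), and the smallest adjusted p was 0.292. At an unadjusted p under 0.05 there were 940 genes higher in old Gly-Low (5.33%) and 1620 lower (9.18%). DESeq2 called 3.49% of its genes, 180 higher (1.03%) and 432 lower (2.47%), and limma-voom with quality weights called 2262 higher and 2564 lower. The count rested on young control 4, since without it edgeR called 1052 genes higher and 1604 lower, and without any other single library of the 7 it called 0. In every old Gly-Low library 1108 genes (6.28%) were above all 4 young controls and 1282 (7.27%) were below them.

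The acute controls gave a second young group on control diet. Against them, in a fit of all 20 libraries, edgeR called 46 of 19061 genes (0.241%), 42 higher in old Gly-Low (0.22%) and 4 lower (0.021%). The count depended on single libraries, from 4 without old Gly-Low 2 to 27 without old Gly-Low 1, and it was 0 when acute controls 2, 3 and 5 were all left out for the pituitary transcripts in them, an alternative chosen after seeing the data. Without a single acute control it was 5 to 19. In levels, 337 genes (1.91%) were above all 9 young and acute control libraries in every old Gly-Low library, and 243 (1.38%) were below all 9. Against old control, old Gly-Low had 0 called genes of 18281 by edgeR, with 433 (2.37%) at an unadjusted p under 0.05, 3 called by DESeq2 and 0 by limma-voom. Below, a gene is said to be called only for the test against acute control, and the values against young control are given as levels and log2 fold changes. Counts of list members at an unadjusted p under 0.05 stand beside shares over all genes tested of 5.33% higher and 9.18% lower. Counts of members above or below all 4 young controls stand beside 6.28% and 7.27%, and those for all 9 beside 1.91% and 1.38%.

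Some phagocyte genes were higher in level in old Gly-Low than in both young groups, and others were not. Of the 24 genes of phagocyte lysosomes and Fc receptors, all tested, 8 were higher and 1 lower at an unadjusted p under 0.05, 7 were above and 1 below all 4 young controls in every old Gly-Low library, and 3 were called higher against acute control. Their median log2 fold change was 0.23 over young control, 0.15 without young control 4 and 0.67 over acute control. The lower one was the lysosomal enzyme Hexa, at −0.58 ± 0.17 over young control. Mpeg1, which encodes the pore-forming perforin-2 of macrophages and microglia, had the smallest p of all genes against young control. The gene, on chromosome 19 from 12460779 to 12465283 (GRCm38, GENCODE M21), had 77.3, 94.6 and 104 CPM in old Gly-Low, against 27.6, 35.8, 27.0 and 25.7 CPM in young control, and 34.6 to 46.6 CPM in acute control. The groups did not overlap, and the log2 fold change was 1.65 ± 0.19 over young control (SE, edgeR adjusted p = 0.292, and 0.00768 without young control 4) and 1.24 ± 0.16 over acute control (edgeR adjusted p = 0.00144). In old control it had 89.5 to 120 CPM.

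The inhibitory IgG receptor Fcgr2b and the SLAM family receptor Ly9 had the smallest p against acute control. Fcgr2b had 10.3, 20.7 and 15.7 CPM in old Gly-Low, against 5.56, 5.08, 4.23 and 4.83 CPM in young control, a log2 fold change of 1.65 ± 0.28, and it was called against acute control at 2.13 ± 0.22 (edgeR adjusted p = 0.000223). Ly9 had 3.29, 3.83 and 3.23 CPM in old Gly-Low, against 0.437, 0.865, 0.166 and 0.2996 CPM in young control, from 4 to 15 counts in a young library. Both genes overlap 1 gene on the other strand, whose reads this non-directional library does not separate. Adgre1, which encodes the macrophage surface protein F4/80, had 11.2, 14.4 and 18.4 CPM in old Gly-Low, against 6.75, 4.79, 5.47 and 4.49 CPM in young control. Lyz2, a lysozyme of myeloid cells, had 43.8, 49.96 and 56.9 CPM in old Gly-Low, against 7.93, 13.2, 20.5 and 7.87 CPM in young control. Each old Gly-Low value of these 4 genes was above each young and each acute control value.

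Receptors that microglia use to sense lipids and debris were among them. Trem2, which binds lipids and drives the switch of microglia to their disease-associated state, had 22.4, 20.1 and 23.5 CPM in old Gly-Low, against 11.8, 10.8, 13.1 and 7.53 CPM in young control, and was called against acute control at a log2 fold change of 1.04 ± 0.18 (edgeR adjusted p = 0.0242). Clec7a, the beta-glucan receptor dectin-1, had 4.67, 6.75 and 8.96 CPM in old Gly-Low, against 0.312, 0, 0.539 and 0.150 CPM in young control (0 to 13 counts), with a log2 fold change of 4.69 ± 0.77 over young control and a call against acute control at 2.97 ± 0.61 (edgeR adjusted p = 0.0458). Lpl, which releases fatty acids from lipoproteins, had 9.92, 9.64 and 12.2 CPM in old Gly-Low and 1.69, 2.08, 2.32 and 3.03 CPM in young control. It was not called against acute control, where it had 3.24 to 18.1 CPM and the log2 fold change was 0.41 ± 0.43. Cx3cr1, the fractalkine receptor of microglia, whose locus overlaps 3 annotated genes on its strand and 6 on the other, had 54.7, 57.6 and 60.8 CPM in old Gly-Low and 28.4, 24, 22.7 and 36.2 CPM in young control, and was not called against acute control either (0.65 ± 0.17, edgeR adjusted p = 0.155). The leucocyte phosphatase Ptprc, the SLAM receptor Cd84, the phagosomal metal transporter Slc11a1 and the protease Ctss were each called against acute control, with log2 fold changes of 1.04 ± 0.21, 1.30 ± 0.26, 1.53 ± 0.29 and 1.00 ± 0.20, and had 1.37 ± 0.27, 1.41 ± 0.29, 1.22 ± 0.31 and 0.90 ± 0.24 over young control.

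**Figure D2:**
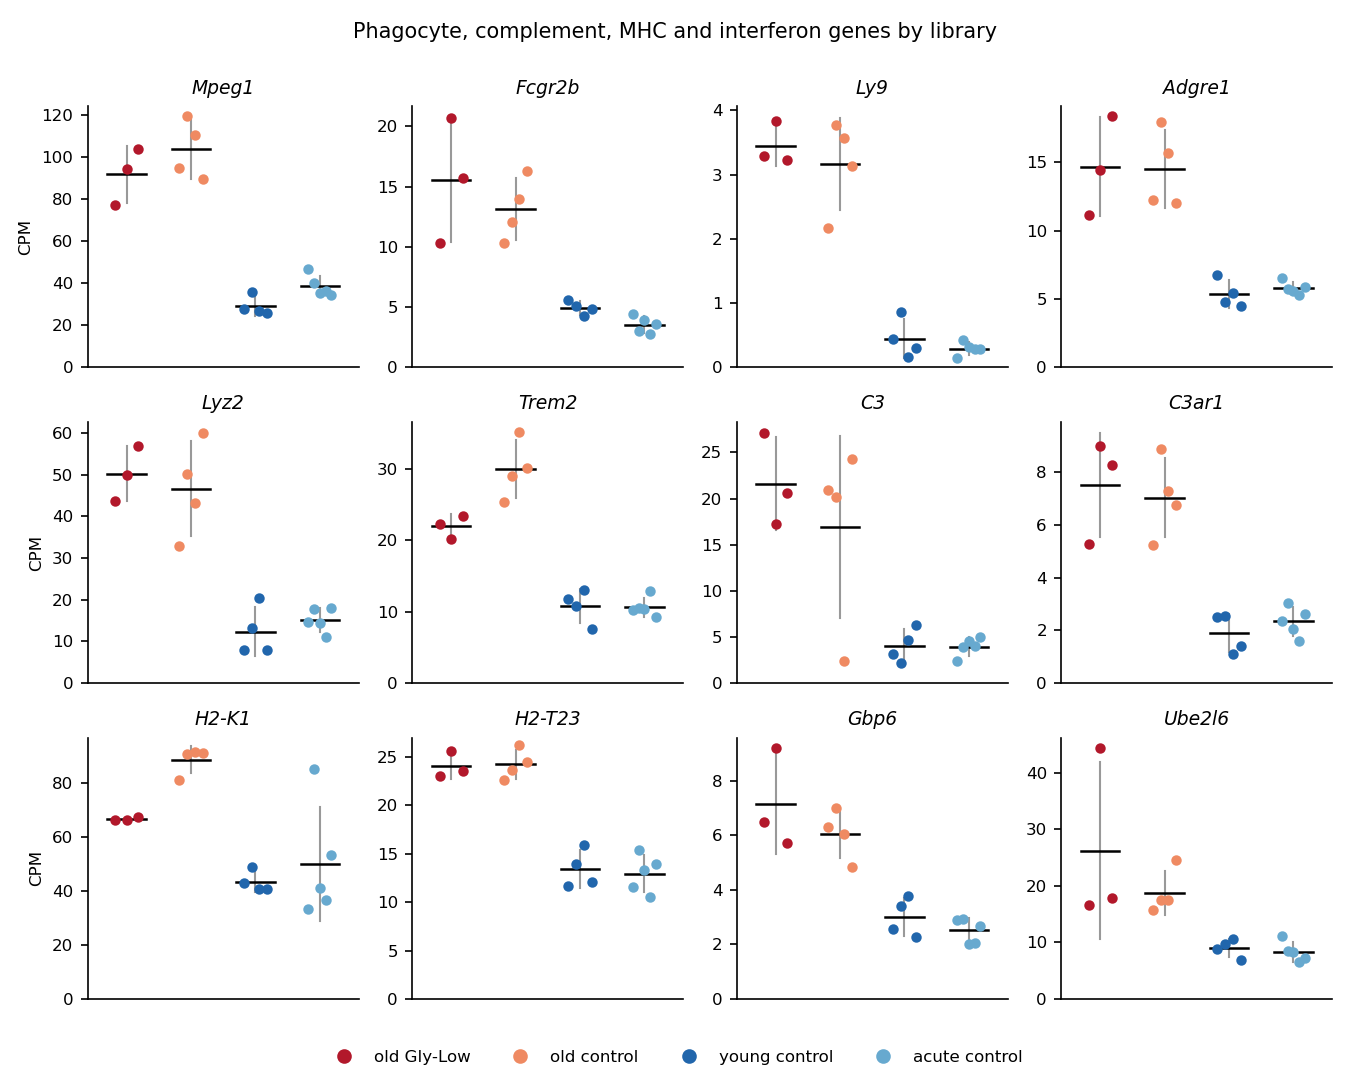
CPM per library (points) for 12 phagocyte, complement, MHC and interferon genes, with the mean (black line) and 1 SD to either side (grey line) for old Gly-Low (n = 3), old control (n = 4), young control (n = 4) and acute control (n = 5), on axes from 0. Every old Gly-Low library lies above every young control library for all 12 genes, and above every acute control library except for H2-K1, where acute control 2 reached 85.3 CPM.

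Among the 24 disease-associated microglia genes, all tested, 11 were higher and 0 lower at an unadjusted p under 0.05, 8 were above all 9 young and acute control libraries, and 4 were called against acute control. Their median log2 fold change was 0.65 over young control and 0.54 over acute control, where all genes tested had 0.03 and 0.03. Over young control 19 of the 24 had a positive log2 fold change and 5 a negative one. Itgax, the integrin CD11c, was at 3.48 ± 0.92 over young control and Cst7, the protease inhibitor cystatin F, at 2.99 ± 1.03. Other members were near 0 or lower, with Apoe at −0.007, Tyrobp at 0.15, Cd9 at −0.04, Cd63 at −0.02 and Fth1 at −0.24. The 17 homeostatic microglia genes had medians of 0.45 and 0.55, with 6 higher and 0 lower at p under 0.05 and 0 called. Within that list Siglech was at 0.79 ± 0.23 and Csf1r, the receptor that keeps microglia alive, at 1.05 ± 0.33, while the purinergic receptor P2ry12 was at −0.06 ± 0.32 over young control. The summed level of the 8 microglia markers was 434 to 470 CPM in old Gly-Low, against 294 to 359 CPM in young control and 270 to 323 CPM in acute control, with all 8 counted in every library. The 6 border macrophage markers summed to 18.9 to 23.03 CPM in old Gly-Low, against 8.76 to 16.1 CPM in young control and 8.67 to 12.9 CPM in acute control. The part of cell numbers in the phagocyte genes was not tested.

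Some complement genes were higher in level in old Gly-Low than in young control, and others were not. C3, the central component of the cascade (chromosome 17, 57203970 to 57228136), had 27.1, 17.3 and 20.6 CPM in old Gly-Low, against 3.19, 2.19, 4.65 and 6.29 CPM in young control, and was called against acute control at a log2 fold change of 2.44 ± 0.47 (edgeR adjusted p = 0.0432). C3ar1, the receptor for the fragment C3a, had 5.26, 8.98 and 8.26 CPM in old Gly-Low, against 2.50, 2.54, 1.12 and 1.42 CPM in young control, and was called at 1.67 ± 0.29 over acute control (edgeR adjusted p = 0.0242). C4b, a complement component that reactive astrocytes and other glia express, had 164, 101 and 139 CPM in old Gly-Low, against 13.9, 6.17, 11.8 and 52.96 CPM in young control, where the highest value was that of young control 4. Its groups did not overlap, with a log2 fold change of 2.68 ± 0.65 over young control, and 2.47 ± 0.59 over acute control with an edgeR adjusted p of 0.102. Of 19 complement genes 18 were tested, and 6 were higher and 0 lower at an unadjusted p under 0.05. Their median was 0.48 over young control, 0.16 without young control 4, and 0.71 over acute control, where 2 were called. The microglial C1qa, C1qb and C1qc were at 0.05, 0.21 and 0.22 over young control. Over acute control they were at 1.06, 0.76 and 0.87 and were not called.

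Genes of antigen presentation by MHC class I, which shows peptides from inside the cell to T cells, were higher in level. H2-K1, a classical class I heavy chain (chromosome 17, 33996017 to 34000347), had 66.4, 66.1 and 67.4 CPM in old Gly-Low, against 43.0, 48.7, 40.8 and 40.6 CPM in young control, a log2 fold change of 0.61 ± 0.14. In old control it had 81.2 to 91.3 CPM, above each old Gly-Low library, with an edgeR adjusted p of 0.953 for the old groups. H2-D1 had 90.8, 70.2 and 78.8 CPM in old Gly-Low and 33.2, 19.7, 41.0 and 47.2 CPM in young control. H2-Q6 had 3.69, 3.20 and 2.57 CPM in old Gly-Low and 0.562, 0.346, 0.664 and 1.05 CPM in young control. For these 3 genes acute control 2 held 85.3, 72.6 and 3.66 CPM, the groups overlapped there, and none was called against acute control. H2-T23, a non-classical class I chain read by natural killer cells, had 23.02, 25.6 and 23.5 CPM in old Gly-Low, against 11.7, 14.0, 15.9 and 12.1 CPM in young control, and was called at 0.89 ± 0.16 over acute control (edgeR adjusted p = 0.0242). H2 genes are near-identical in part, so reads may be split between them. B2m, the light chain they share, had 150, 172 and 190 CPM in old Gly-Low and 140, 170, 161 and 83.7 CPM in young control, and the groups overlapped.

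Of the 20 class I and antigen presentation genes, all tested, 9 were higher and 1 lower at an unadjusted p under 0.05, with a median of 0.82 over young control and 0.60 over acute control. The transporter subunit Tap1 was at 1.31 ± 0.36 over young control and above all 9 young and acute control libraries, as was the immunoproteasome subunit Psmb8 at 1.03 ± 0.34. The 1 lower was the chaperone Calr. Of 16 genes of MHC class II and border macrophages 14 were tested, 6 were higher and 0 lower, and 0 were called, with medians of 0.96 over young control and 0.77 over acute control. H2-Ab1, a class II chain, was at 1.65 ± 0.49 over young control and 0.32 over acute control.

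Interferon-stimulated genes, which cells switch on after interferon binds its receptor, had larger log2 fold changes over acute control than over young control, a difference that was not tested. All 35 were tested, with a median log2 fold change of 1.11 over acute control, where 6 were called higher and 0 lower. Over young control the median was 0.45, with 8 higher and 0 lower at an unadjusted p under 0.05. There 29 had a positive log2 fold change and 6 a negative one, the lowest being Cxcl10 at −1.47 and Ifitm3 at −0.84. Ube2l6, Gbp7 and Eif2ak2, described below, are not in this list. Gbp6, a guanylate-binding protein of the interferon response with close copies, had 6.47, 9.21 and 5.73 CPM in old Gly-Low, against 2.56, 3.40, 3.77 and 2.28 CPM in young control, and was called at 1.497 ± 0.26 over acute control (edgeR adjusted p = 0.0242). Ube2l6, which attaches the ubiquitin-like ISG15, had 16.6, 44.3 and 17.8 CPM in old Gly-Low, against 8.81, 9.75, 10.7 and 6.85 CPM in young control, and was called at 1.65 ± 0.29. Old Gly-Low 2 had the highest level of both. Oasl2 had 24.1, 24.3 and 22.04 CPM in old Gly-Low and 10.4, 17.2, 12.4 and 11.2 CPM in young control, and was called at 1.14 ± 0.23 over acute control.

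Other interferon genes were set against each young group in turn, and the young groups were not tested against each other. Ifit3, which binds RNA in the antiviral response and has a close copy in Ifit3b, had 34.2, 63.7 and 47.7 CPM in old Gly-Low, against 28.6, 45.1, 39.9 and 23.7 CPM in young control and 13.6 to 29.0 CPM in acute control. It overlapped with young control (0.48 ± 0.30) and was called against acute control (1.29 ± 0.26, edgeR adjusted p = 0.0444). Trim30a likewise had 6.31, 9.06 and 9.53 CPM in old Gly-Low, against 4.37, 5.54, 6.39 and 4.87 CPM in young control and 2.16 to 4.53 CPM in acute control. Gbp7 and Eif2ak2, the kinase PKR that stops translation on double-stranded RNA, lay above all young controls and were not called against acute control. Gbp7 had 10.9, 14.4 and 10.3 CPM in old Gly-Low, against 4.37, 3.69, 5.60 and 5.09 CPM in young control and 5.72 to 9.99 CPM in acute control. It lay above all 9 young and acute control libraries, at 0.59 ± 0.21 over acute control (edgeR adjusted p = 0.424). Eif2ak2 had 18.7, 25.5 and 21.3 CPM in old Gly-Low, against 7.81, 6.52, 8.17 and 10.5 CPM in young control (1.39 ± 0.22) and 12.4 to 19.1 CPM in acute control (0.57 ± 0.21, not called). Its levels overlapped with those of acute control.

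The element through which the interferon response is known to act was searched in the 250 bases before the start of each gene, as GAAA, any 2 bases and GAAA, on both strands. No other motif was searched. RefSeq promoters (GRCm38.p6) were given for 12517 of the 17637 gene symbols tested, of which 3.18% held the letters, and they were in 2.98% of all 32851 promoter windows. Of the 22 interferon-stimulated genes with a promoter 15 held them (68.2%), of the 17 class I genes 3 did (17.6%, B2m, H2-T22 and H2-T23), and of the 34 genes called higher against acute control with a promoter 6 did (17.6%, Apol11b, Ctss, H2-T23, Ifit3, Ifit3b and Trim30a). A match describes letters and not a bound site. The windows of H2-T23, Gbp7 and Ifit3, genes described above, are printed because they hold a match, 5′ to 3′ on the strand of the gene, with the matched letters in capitals. All matches lie on the strand opposite the gene and so read TTTC, any 2 bases and TTTC. They end 115 bases before the RefSeq start in H2-T23, 44 in Gbp7, and 147 and 113 in Ifit3. In GENCODE M21 the minus-strand gene H2-T23 starts at 36032855, inside the printed window, and its match lies within that annotated gene.
H2-T23, chr17:36032702-36032951, minus strand: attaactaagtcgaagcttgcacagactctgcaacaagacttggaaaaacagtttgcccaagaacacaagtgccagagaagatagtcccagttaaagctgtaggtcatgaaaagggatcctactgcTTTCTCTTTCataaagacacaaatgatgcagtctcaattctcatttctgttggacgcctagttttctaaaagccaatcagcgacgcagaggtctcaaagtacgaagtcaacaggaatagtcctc
Gbp7, chr3:142530086-142530335, plus strand: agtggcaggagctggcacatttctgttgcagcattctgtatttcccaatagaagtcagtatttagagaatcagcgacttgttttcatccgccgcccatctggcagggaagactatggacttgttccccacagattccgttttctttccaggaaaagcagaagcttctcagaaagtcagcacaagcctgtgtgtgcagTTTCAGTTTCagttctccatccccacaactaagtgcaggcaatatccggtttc
Ifit3, chr19:34583279-34583528, plus strand: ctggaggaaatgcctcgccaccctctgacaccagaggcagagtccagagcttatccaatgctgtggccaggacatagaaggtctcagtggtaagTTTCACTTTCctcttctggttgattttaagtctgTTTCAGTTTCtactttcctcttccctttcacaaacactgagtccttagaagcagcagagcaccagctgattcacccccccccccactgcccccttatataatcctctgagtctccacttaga

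Some astrocyte genes of the reactive state were higher in level than in young control and others were not. Genes of astrocyte identity had medians close to those of all genes. Gfap, the filament of reactive astrocytes, had 500, 313 and 469 CPM in old Gly-Low, against 75.2, 30.0, 77.3 and 249 CPM in young control, where young control 4 had the highest value. The groups did not overlap, and the log2 fold change was 2.00 ± 0.60 over young control and 1.02 ± 0.52 over acute control. Vim, a filament of astrocytes, tanycytes and vessels, had 88.5, 91.4 and 106 CPM in old Gly-Low and 59.5, 42.9, 65.4 and 66.7 CPM in young control, and was called at 1.03 ± 0.21 over acute control (edgeR adjusted p = 0.0444). Ggta1, a galactosyltransferase, had 17.7, 24.8 and 20.4 CPM in old Gly-Low and 10.3, 16.1, 12.9 and 12.8 CPM in young control, and was called at 0.99 ± 0.17 over acute control. Serpina3n, a protease inhibitor of reactive astrocytes, had 111, 183 and 143 CPM in old Gly-Low and 82.7, 89.8, 81.8 and 91.8 CPM in young control, with an edgeR adjusted p of 0.0917 against acute control. The 18 reactivity genes had medians of 0.73 over young control and 0.89 over acute control, with 7 higher and 0 lower at an unadjusted p under 0.05. Over young control 13 had a positive log2 fold change and 5 a negative one. The negative ones were Cxcl10 at −1.47, S100a10 at −0.68, Cd44 at −0.41, S100a6 at −0.28 and Emp1 at −0.10. The 14 identity genes had medians of 0.20 and 0.04, with 1 higher and 2 lower. The 6 astrocyte markers, Gfap among them, summed to 3605 to 4234 CPM in old Gly-Low, against 2470 to 3066 CPM in young control and 2833 to 3657 CPM in acute control.

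Transcripts of red blood cells were several-fold higher in level in old Gly-Low. Alas2, the first enzyme of heme synthesis in the red cell lineage (chromosome X, 150547375 to 150570638), had 35.5, 106 and 29.1 CPM in old Gly-Low, against 1.19, 3.00, 5.39 and 2.55 CPM in young control, a log2 fold change of 4.20 ± 0.63, and was called at 3.02 ± 0.54 over acute control (edgeR adjusted p = 0.0242). The beta globin Hbb-bs had 606, 1665 and 563 CPM in old Gly-Low, against 37.3, 68.6, 186 and 32.3 CPM in young control. The alpha globin Hba-a1 had 306, 1110 and 331 CPM in old Gly-Low, against 26.1, 57.6, 160 and 26.1 CPM in young control. Old Gly-Low 2 was highest for all 3 genes, and the groups did not overlap for any. The globins were called against acute control, and each has a near-identical copy that may share its reads. Of 10 erythrocyte and heme genes 9 were tested, and 6 were higher and 0 lower at an unadjusted p under 0.05, with medians of 3.07 over young control and 2.86 over acute control. In old control Alas2 had 11.9 to 60.2 CPM and Hbb-bs 481 to 960 CPM. The 5 erythrocyte markers, all counted in every library, summed to 983 to 3145 CPM in old Gly-Low, against 64.5 to 370 CPM in young control and 73.3 to 326 CPM in acute control. The amount of blood left in the tissue was not measured, and its part in these values was not tested.

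Other transcripts of blood and immune cells were at low levels. The immunoglobulin heavy chain Ighm had 20.4, 15.3 and 14.8 CPM in old Gly-Low, against 7.31, 5.94, 9.21 and 7.49 CPM in young control, a log2 fold change of 1.15 ± 0.23, with 0.86 ± 0.19 over acute control (edgeR adjusted p = 0.0639). Ppbp, a chemokine of platelets, had 0.628, 2.81 and 1.51 CPM in old Gly-Low and 0, 0, 0 and 0.0375 CPM in young control. The 8 lymphocyte markers summed to 17.8 to 28.1 CPM in old Gly-Low, against 5.94 to 9.66 CPM in young control and 8.54 to 11.3 CPM in acute control. Of these 8, Ighm alone was counted in all 7 libraries, and it made up most of the sum in each of them. Of a wider list of 22 lymphocyte and immunoglobulin genes 8 were tested, with 4 positive and 4 negative log2 fold changes over young control, 2 higher and 1 lower at an unadjusted p under 0.05, and a median of 0.17, or 0.71 over acute control with 0 called. The lower one, the T cell receptor constant region Trac, was at −1.32 ± 0.32 over young control (DESeq2 adjusted p = 0.00693) and 0.34 over acute control.

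**Figure D3:**
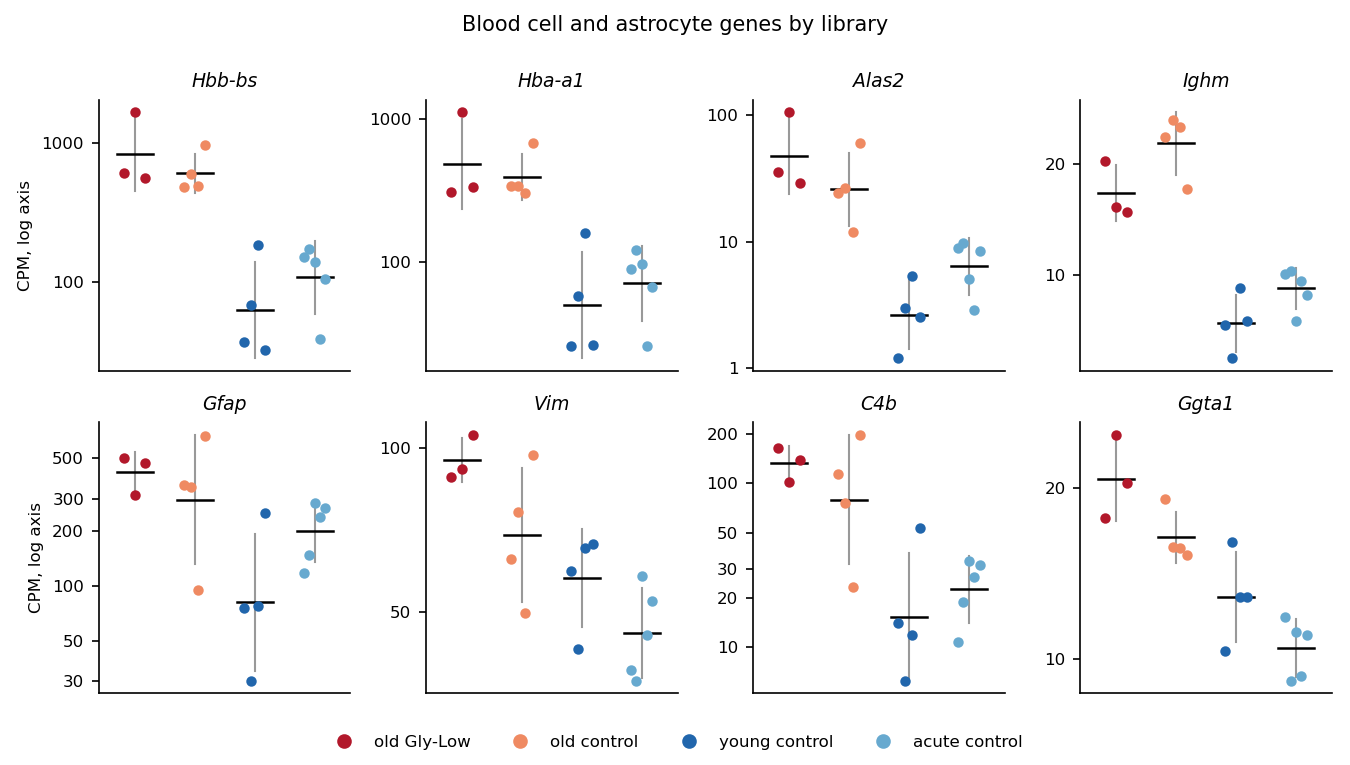
CPM per library (points, log axes) for 4 blood cell and 4 glial genes in old Gly-Low (n = 3), old control (n = 4), young control (n = 4) and acute control (n = 5), with the geometric mean (black line) and 1 SD of the log2 values to either side (grey line). All 3 old Gly-Low libraries lie above all 4 young controls for each gene, and young control 4 is the highest young library for Gfap (249 CPM) and C4b (52.96 CPM).

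A few genes outside these groups were higher in level than in both young groups. Apol11b, of the apolipoprotein L family, had 2.20, 5.97 and 1.02 CPM in old Gly-Low and no count in the 4 young controls, while acute control held 0.0381 CPM in 1 library and no count in the other 4. It was called against acute control (edgeR adjusted p = 0.00144). Clic6, of the chloride intracellular channel family and abundant in choroid plexus, had 46.7, 43.1 and 49.4 CPM in old Gly-Low, against 20.9, 16.3, 21.3 and 29.1 CPM in young control, and was called at 1.09 ± 0.18 over acute control (edgeR adjusted p = 0.0242). The 6 choroid plexus markers, Clic6 among them, summed to 64.2 to 68.8 CPM in old Gly-Low, against 27.9 to 47.0 CPM in young control and 35.7 to 44.3 CPM in acute control, and Aqp1 had no count in some library. Clic6 made up most of that sum in each library of old Gly-Low and young control. Of a wider list of 15 choroid plexus genes 13 were tested, with 7 positive and 6 negative log2 fold changes over young control. At an unadjusted p under 0.05, 3 were higher and 2 lower, and the median was 0.20 over young control and −0.03 over acute control. The part of the choroid plexus markers in the level of Clic6 was not tested. Pcdhb1, a clustered protocadherin by which neurons tell their own branches from others, had 2.86, 3.43 and 5.55 CPM in old Gly-Low, against 0.6248, 0.346, 0.705 and 0.637 CPM in young control, from 6 to 17 counts in a young library, and 0.107 to 2.44 CPM in acute control. It overlaps 3 genes on the same strand. Of 56 clustered protocadherins 54 were tested, with 11 higher and 0 lower at an unadjusted p under 0.05 and a median of 0.51 over young control. Over acute control the median was 0.20 with 0 called, and it was 0.30 over young control after an offset for transcript length. Collagens and laminins had a median of 1.01 over 45 tested genes, 0.56 over acute control, and −0.17 when the length slopes entered the fit as a covariate. The 4 thalamus markers summed to 99.9 to 121 CPM in old Gly-Low, 82.7 to 86.7 CPM in young control and 96.3 to 133 CPM in acute control. Of a wider list of 10 thalamus genes 9 were tested, with 4 positive and 5 negative log2 fold changes over young control. At an unadjusted p under 0.05, 1 was higher and 1 lower, and the medians were −0.20 over young control and −0.05 over acute control.

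**Figure D4:**
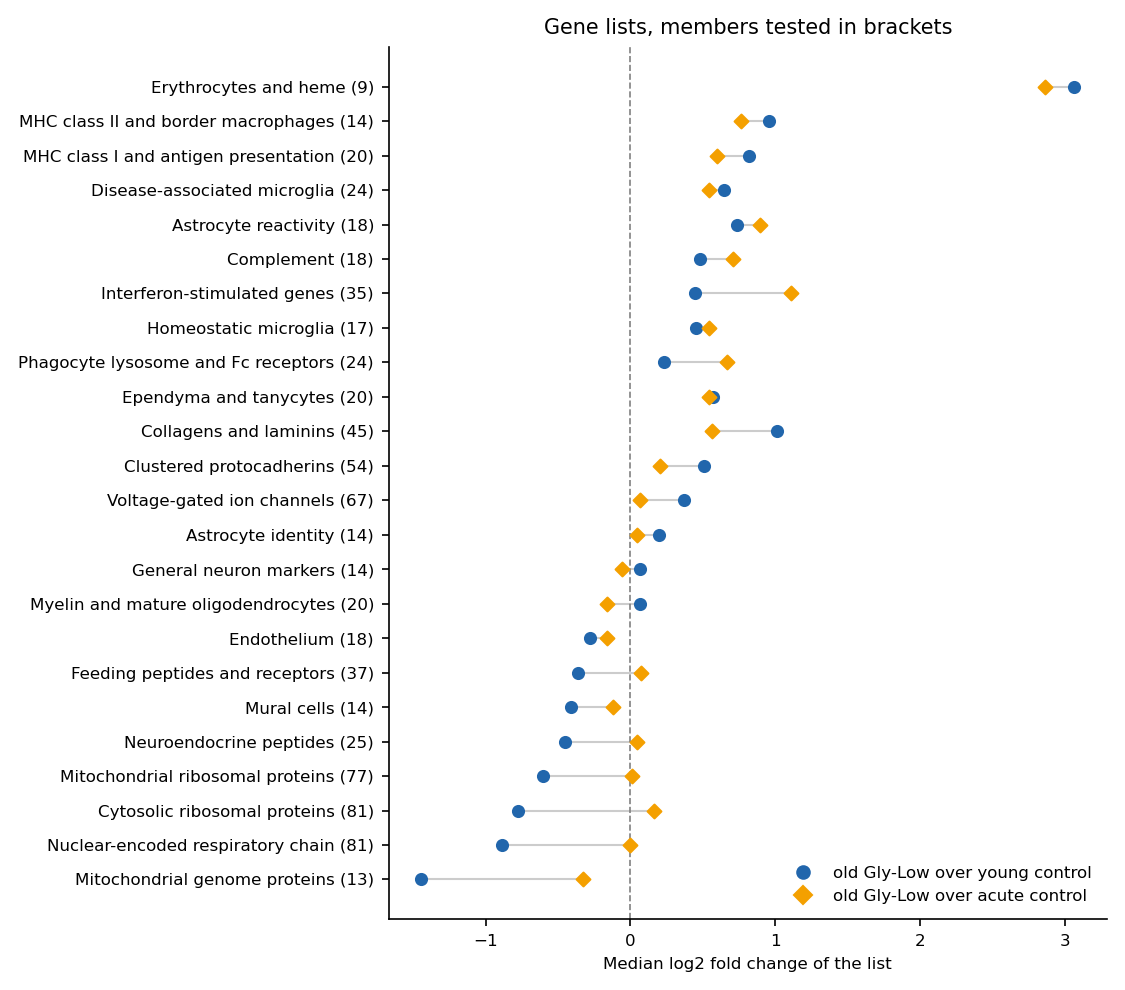
Median log2 fold change of 24 gene lists (tested members in brackets) for old Gly-Low over young control (circles) and over acute control (diamonds), with a dashed line at 0. Erythrocyte, MHC, microglia, astrocyte reactivity, complement and interferon lists lie above 0.2 for both, and ribosomal, respiratory and peptide lists lie below −0.3 over young control and between −0.33 and 0.16 over acute control.

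Several neuropeptides of the hypothalamus were lower in level than in young control. Oxt, which encodes oxytocin (chromosome 2, 130576173 to 130577054), had 121, 115 and 89.1 CPM in old Gly-Low, against 441, 565, 409 and 185 CPM in young control, a log2 fold change of −1.91 ± 0.37. Hcrt, the precursor of the wake-promoting orexins, had 84.4, 61.2 and 26.3 CPM in old Gly-Low, against 308, 279, 205 and 150 CPM in young control (−2.07 ± 0.43). Crh, the hormone that opens the stress response of the pituitary, had 4.71, 4.45 and 2.14 CPM in old Gly-Low, against 15.5, 11.0, 13.4 and 9.74 CPM in young control (−1.74 ± 0.35). Npvf, the precursor of RFamide peptides that restrain reproduction, had 3.06, 2.81 and 4.18 CPM in old Gly-Low, against 13.4, 10.04, 12.5 and 6.70 CPM in young control (−1.69 ± 0.34). Each old Gly-Low library was below each young control for these 4 genes, the edgeR adjusted p was 0.292 for each, and without young control 4 it was 0.00702, 0.0164, 0.0192 and 0.0107. None was called against acute control, where the levels overlapped with old Gly-Low. Acute control had 65.9 to 226 CPM of Oxt, 52.0 to 248 CPM of Hcrt, 3.46 to 3.96 CPM of Crh and 2.49 to 10.5 CPM of Npvf, and the log2 fold change of Crh over acute control was 0.04 ± 0.32.

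The feeding peptides of the arcuate nucleus were set against each young group in turn. Agrp, which drives feeding, had 14.98, 29.4 and 19.6 CPM in old Gly-Low, against 33.4, 36.9, 39.6 and 21.3 CPM in young control and 6.36 to 11.2 CPM in acute control. The log2 fold change was −0.64 ± 0.32 over young control and 1.198 ± 0.33 over acute control, and neither passed. Agrp overlaps 7 annotated genes, 5 of them on the other strand. Npy, co-expressed with Agrp, had 41.3, 77.5 and 39.8 CPM in old Gly-Low, against 85.7, 88.6, 132 and 50.3 CPM in young control and 6.94 to 14.8 CPM in acute control, with log2 fold changes of −0.78 ± 0.38 and 2.09 ± 0.45. Pomc, the precursor of the satiety peptide alpha-MSH that the pituitary also makes, had 129, 55.9 and 60.5 CPM in old Gly-Low and 83.8, 56.4, 63.6 and 83.7 CPM in young control, a log2 fold change of 0.17 ± 0.31. It was −0.32 without old Gly-Low 1, the library of highest Pomc, where pituitary transcripts summed to 1232 CPM. In acute control it ran from 34.98 to 3196 CPM beside the pituitary transcripts given above. Ghsr, the ghrelin receptor, had 14.8, 16.8 and 16.1 CPM in old Gly-Low, above the 9.93, 13.2, 12.98 and 13.3 CPM of young control, the 8.63 to 11.2 CPM of acute control and the 8.91 to 12.2 CPM of old control, with log2 fold changes of 0.35 ± 0.19 and 0.61 ± 0.26 over the young groups and no call in any comparison.

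Of 38 feeding peptides and receptors 37 were tested, and 0 were higher and 9 lower at an unadjusted p under 0.05, with a median of −0.36 over young control and 0.07 over acute control. Of 28 neuroendocrine peptides 25 were tested, 0 were higher and 9 lower, and the medians were −0.45 and 0.05. Cartpt, an appetite-suppressing peptide, was at −1.04 ± 0.25 over young control and 0.07 over acute control, and neurotensin, Nts, was at −1.39 ± 0.33 and −0.67. Prlh, the prolactin-releasing hormone, was below all 9 young and acute control libraries, at −3.48 ± 0.85 over young control. Pmch and Avp were at −0.36 ± 0.27 and −0.17 ± 0.30. The median transcript length was 1208 bases in the neuroendocrine list and 1836 in the feeding list, against 2521 over all genes tested. After an offset for transcript length the neuroendocrine median was −0.20, and −0.042 when the length slopes entered the fit as a covariate. The feeding median was −0.18 with the offset and −0.18 with the covariate. With the offset Oxt, Hcrt, Crh and Npvf were at −1.17, −1.38, −1.49 and −1.18 over young control.

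**Figure D5:**
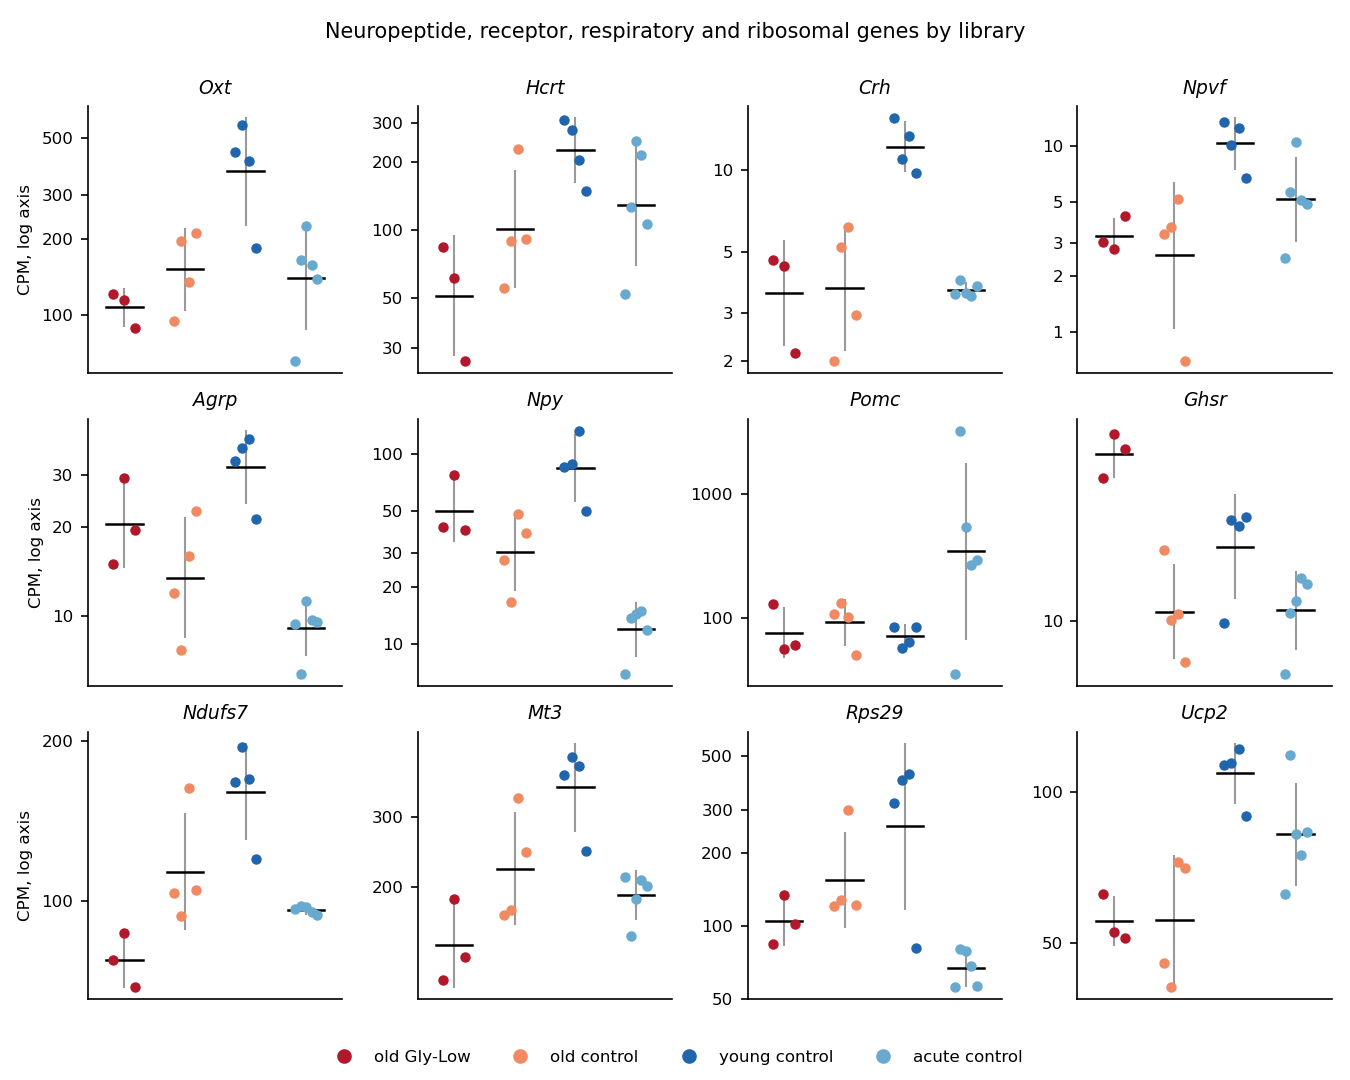
CPM per library (points, log axes) for 7 neuropeptide genes, the receptor gene Ghsr, and Ndufs7, Mt3, Rps29 and Ucp2, in old Gly-Low (n = 3), old control (n = 4), young control (n = 4) and acute control (n = 5), with the geometric mean (black line) and 1 SD of the log2 values to either side (grey line). Oxt, Hcrt, Crh and Npvf lie below all young controls in old Gly-Low and overlap with acute control, and Rps29 of young control 4 (80.9 CPM) lies below all old Gly-Low libraries.

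Lists of respiration and ribosome genes had negative median log2 fold changes over young control. Over acute control the medians of 3 of the 4 lists were near that of all genes. Of 83 nuclear-encoded respiratory chain genes 81 were tested, and 61 were lower and 0 higher at an unadjusted p under 0.05, with a median of −0.89 over young control and −0.0049 over acute control. Ndufs7, a core subunit of complex I, had 77.2, 86.8 and 68.6 CPM in old Gly-Low, against 167, 195, 170 and 120 CPM in young control and 93.7 to 97.5 CPM in acute control, below all 9. The 13 protein genes of the mitochondrial genome had a median of −1.44, with 9 lower and 0 higher, and −0.33 over acute control. mt-Cytb had 6884, 8443 and 10086 CPM in old Gly-Low, against 19471, 28112, 20520 and 7369 CPM in young control. Of 84 cytosolic ribosomal protein genes 81 were tested, with 37 lower and 0 higher and medians of −0.78 and 0.16. Rps29 had 84.6, 134 and 101 CPM in old Gly-Low, against 321, 396, 423 and 80.9 CPM in young control, where young control 4 was the lowest library. Mitochondrial ribosomal proteins had medians of −0.60 and 0.01 over 77 tested genes, with 43 lower and 0 higher. In every old Gly-Low library, 11 of the 81 respiratory chain genes and 21 of the 77 mitochondrial ribosomal genes were below all 4 young controls. So were 2 of the 81 cytosolic ribosomal genes and 0 of the 13 mitochondrial genome genes, against 7.27% of all genes tested. None of these lists had a call against acute control.

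These lists are of short transcripts. The median transcript length was 742 bases for the respiratory chain, 744 for cytosolic ribosomal proteins and 784 for the mitochondrial genome. Across all genes the log2 fold change over young control ran with length, from a median of −0.46 in the shortest of 5 bins (56 to 1321 bases) to 0.40 in the longest (from 4194.5 bases), with a Spearman correlation of 0.47 across 17628 genes that share the same libraries. Over acute control the bin medians were 0.01 to 0.07 and the correlation 0.06 across 19044 genes. After an offset for transcript length, the median over young control was −0.36 for the respiratory chain, −0.20 for cytosolic and −0.45 for mitochondrial ribosomal proteins and −0.95 for the mitochondrial genome. When the length slopes entered the fit as a covariate, these medians were −0.14, 0.083, −0.12 and −0.032, with a positive sign for the cytosolic ribosomal proteins, where all genes tested had −0.020. The same offset left the immune lists at 0.97 for MHC class I, 0.83 for disease-associated microglia and 0.54 for interferon-stimulated genes, and the covariate at 0.86, 0.95 and 0.74. Mt3, a brain metallothionein that binds zinc and copper, had 116, 186 and 133 CPM in old Gly-Low, against 383, 425, 404 and 246 CPM in young control, and −1.35 ± 0.26, or −0.71 with the offset.

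Against acute control 4 genes were called lower, Ccnd2, Meis2, Nrep and Masp1. Nrep, a gene of axon growth and repair, had 19.5, 24.6 and 22.2 CPM in old Gly-Low, against 34.99, 40.2, 37.8 and 31.2 CPM in young control and 32.6 to 38.8 CPM in acute control, with log2 fold changes of −0.72 ± 0.18 and −0.70 ± 0.14 (edgeR adjusted p = 0.292 and 0.0432). Ccnd2, a cyclin of the step into DNA synthesis, had 12.6, 12.02 and 14.9 CPM in old Gly-Low, against 23.4, 21.6, 21.1 and 28.8 CPM in young control and 22.2 to 132 CPM in acute control, where acute control 2 was highest, as it was for Pomc. Masp1, a protease of the lectin pathway of complement, had 8.12, 4.18 and 5.73 CPM in old Gly-Low, against 10.8, 12.5, 9.25 and 10.9 CPM in young control. Meis2, a homeobox transcription factor, had 7.37, 3.63 and 3.02 CPM in old Gly-Low and 15.1, 6.40, 13.4 and 10.3 CPM in young control, and its groups overlapped there.

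Dcx, a microtubule protein of immature neurons, had 26.4, 24.5 and 25.8 CPM in old Gly-Low, against 39.0, 40.7, 34.5 and 33.0 CPM in young control and 29.9 to 42.1 CPM in acute control, below all 9 (−0.54 ± 0.16). Among protein-coding genes lower than in young control, the smallest p belonged to Ucp2, a mitochondrial carrier, Atp6v1g2, a neuronal subunit of the proton pump of vesicles, and Shisa4, of the Shisa membrane proteins. Ucp2 had 62.7, 52.5 and 51.2 CPM in old Gly-Low, against 113, 114, 121 and 89.3 CPM in young control (−0.9996 ± 0.17). Atp6v1g2 had 150, 120 and 124 CPM in old Gly-Low, against 291, 284, 251 and 213 CPM in young control (−1.001 ± 0.17, and −0.36 with the length offset). Shisa4 had 46.0, 43.0 and 39.8 CPM in old Gly-Low, against 71.6, 77.7, 77.6 and 67.5 CPM in young control (−0.80 ± 0.14). The edgeR adjusted p of these 3 was 0.292 against young control and 0.345 to 0.505 against acute control.

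Vessel and myelin genes varied within their lists. Mural cell genes, of pericytes and smooth muscle, had a median of −0.41 over 14 tested, with 5 lower and 0 higher at an unadjusted p under 0.05, and −0.12 over acute control. Rgs5, a pericyte marker, was below all 9 young and acute control libraries, at −1.01 ± 0.21 over young control and −0.96 over acute control (edgeR adjusted p = 0.0618). The smooth muscle actin Acta2 was at −1.85 ± 0.40 over young control and −0.76 over acute control. The 5 mural markers summed to 121 to 140 CPM in old Gly-Low, 179 to 282 CPM in young control and 179 to 212 CPM in acute control, with Tagln at no count in some library. The 5 endothelium markers summed to 88.4 to 103 CPM in old Gly-Low, 124 to 152 CPM in young control and 91.5 to 128 CPM in acute control. Among 20 myelin genes the median was 0.07, with 1 higher and 6 lower. The structural protein Mbp was at 0.23 ± 0.17, while Cldn11, the tight junction protein of myelin, and Tspan2 were at −0.84 ± 0.17 and −0.72 ± 0.18 and below all 9 young and acute control libraries. The 14 general neuron genes had a median of 0.07, with 0 higher and 4 lower.

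Genes that handle methylglyoxal and other aldehydes were close to all genes. Glo1 had 118, 172 and 157 CPM in old Gly-Low, against 162, 198, 173 and 118 CPM in young control and 128 to 189 CPM in acute control, and the groups overlapped. The log2 fold change was −0.15 ± 0.23 over young control and 0.03 ± 0.19 over acute control, and the first turned to 0.25 with the length offset. Glo1 overlaps 6 annotated genes, 4 of them on the other strand. Of the 24 genes of this list 1 was higher and 4 lower at an unadjusted p under 0.05, and the median was −0.12 over young control and 0.07 over acute control. Ager, the receptor for advanced glycation end products, was at −0.04 ± 0.47. The 31 genes of the NRF2, glutathione and thioredoxin systems had medians of −0.22 and 0.12, with 0 higher and 4 lower. Of all genes tested, 5.33% were higher and 9.18% lower at that p. Glycolysis and lactate genes had −0.05 and −0.01 over 23 tested, and genes of NAD, B vitamin and lipoate metabolism −0.06 and −0.05 over 31.

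Set beside the old control group, which was set against the same young control libraries, the lists had the following medians. The median log2 fold change of old control over young control was 0.92 for MHC class I, 0.67 for disease-associated microglia, 0.70 for interferon-stimulated genes, 0.65 for astrocyte reactivity and 2.56 for erythrocyte genes, where old Gly-Low had 0.82, 0.65, 0.45, 0.73 and 3.07. It was −0.33 for the respiratory chain, −0.26 for cytosolic ribosomal proteins and −0.31 for feeding peptides, where old Gly-Low had −0.89, −0.78 and −0.36. The old control medians come from a fit of the 11 libraries of the ageing arm, and those of old Gly-Low from the 7. Old control 3 had a mitochondrial share of 15.8% and a length slope of −0.20, within the range of young controls 1 to 3. The part of that library in these medians was not tested. Of 18281 genes, 6 (0.0328%) were called between old control and young control. Between the old groups, 62 of the genes named here had an edgeR adjusted p of 0.953 or more, which does not show that the old groups were alike.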

How the data were processed

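Hypothalamus RNA, poly-A selected and made into non-directional libraries per the labels, was sequenced in 20 libraries. The authors deposited raw counts of reads for 54532 gene identifiers. HISAT2 2.0.5, featureCounts 1.5.0-p3, DESeq2 1.20.0 and build GRCm38 are named in the submitters' processing notes. The annotation release and the strand setting were not given in these sources, and reads of antisense genes cannot be told apart. Identifiers were named from GENCODE M21, and 37 of them, with at most 0.0198% of the counts of a library, found no match.

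Groups were taken from the titles. The 7 libraries of the comparison were tested with edgeR 4.0.16 in R 4.3.3 (quasi-likelihood test, TMM, filter on low counts, Benjamini-Hochberg adjustment at 0.05), and the comparison with acute control in a fit of all 20. A prior count of 2 entered only the log2 CPM behind the length slope, the length offset and the surrogate variable, and not the test or its log2 fold changes. CPM values are scaled by TMM over all 20 libraries. The alternatives used DESeq2 1.42.0, limma 3.58.1 and sva 3.50.0. The steps were tested on simulated counts, where DESeq2 called more unchanged genes than its threshold allows, so its calls stand beside those of edgeR. The simulation drew each gene on its own from edgeR's estimates of spread, with no library that stands apart as young control 4 does. It therefore cannot rank the tools for these data. Shares and slopes were compared by exact permutation.

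The members, lists and genes were chosen with earlier results of these data known. The rule named, in each direction, the 3 protein-coding genes of smallest p, 5 genes called between old and young control in earlier work on these data, and Agrp, Npy, Pomc, Ghsr, Glo1 and Gfap, whatever their values. The other genes were chosen after their values were seen. Close copies make values uncertain for the H2 genes, the globins, Ifit3 and the Gbp genes, and Ptprc, Ctss, C3, Gbp6, Gbp7, Clic6 and Ggta1 each overlap 1 gene on their own strand. On the other strand Masp1 overlaps 3 genes, and Alas2, Ccnd2 and Eif2ak2 overlap 2 each. Gfap, H2-T23, B2m, Trim30a, Ucp2 and Atp6v1g2 each overlap 1 gene there. Same-numbered old Gly-Low and young control libraries did not deviate together in every pair (correlations of 0.0208, 0.459 and 0.00467), so the numbers were not taken to pair them. No 2 libraries held identical counts.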

Additional observations from a re-analysis of the deposited data

Results flagged for a closer look

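In 15 of 198 groups of 4 or 5 libraries, 1 library lay far from the rest by Dixon's criterion, which chance alone meets in about 1 group in 20. Of the young controls, C4b was 52.96 CPM in young control 4 against 6.17 to 13.9 CPM in the others, Hbb-bt 10.3 CPM in young control 3 against 2.36 to 3.69 CPM, Ghsr 9.93 CPM in young control 1 against 12.98 to 13.3 CPM, and Ppbp 0.0375 CPM in young control 4 against no count. Of the old controls, H2-K1 was 81.2 CPM in replicate 1 against 90.7 to 91.3 CPM, Ggta1 19.1 CPM in replicate 1, Hba-a1 679.7 CPM and Ppbp 1.98 CPM in replicate 4, and Ndufs7 163 CPM and Rps29 300.6 CPM in replicate 3. Of the acute controls, Pomc was 3195.7 CPM, Slc11a1 2.13 CPM and Apol11b 0.0381 CPM in replicate 2, and Meis2 21.7 CPM and Glo1 189 CPM in replicate 1. Groups of 3, such as old Gly-Low, were not examined this way.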

How the results depend on the processing

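Against young control, where edgeR called 0 genes, DESeq2 called 612, limma-voom with quality weights 4826, the 11 libraries of the ageing arm 1, all 20 libraries 159, 1 surrogate variable 2, the length slope as a covariate 60, and acute control in place of young control 46. With the replicate number as a block 4207 genes were called, although the numbers do not pair the libraries. Old Gly-Low 1 correlated best with young control 4. Leaving out 1 library gave 0 to 2656 calls. Over the fixed lists, 0 calls became 26 with acute control as the young group and 400 without young control 4, and leaving out 1 library gave 0 to 400. The size factors of DESeq2, the stricter and absent filters and the length offset left the count at 0.

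Against old control DESeq2 called 3 genes. Old control against young control, with 6 calls, gave 388 by DESeq2, 11 with no filter, 3920 by limma-voom, 120 with 20 libraries, 698 with 1 surrogate variable, 19 with the length offset, 413 with the length covariate, 2 without young control 2 and old control 3, and 0 to 6 when 1 library was left out. Against acute control, with 46 calls, there were 20 with the 8 libraries compared, 162 by DESeq2, 142 with the length covariate, 0 without acute controls 2, 3 and 5, and 4 to 27 when 1 library was left out. The cause of these moves was not tested.

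With acute control as the young group the log2 fold change changed sign for Agrp (1.198), Npy (2.09), Pomc (−3.40), Crh (0.036), Glo1 (0.026) and Rps29 (0.64). Pomc was at −0.32 with limma-voom, −0.26 with 1 surrogate variable and −0.32 to 0.38 when 1 library was left out, the lowest without old Gly-Low 1. Glo1 was at 0.21 with 1 surrogate variable, 0.25 with the length offset and 0.27 with the length covariate. Of 62 of the genes named by symbol, 46 passed without young control 4. With 3 libraries against 4, genes of few counts such as Clec7a, Ly9 and Pcdhb1 are the least precise.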
